A study of Homo sapiens with 12 samples.

Results

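The MHC class II antigen presentation genes and their coactivator CIITA were followed through RNA sequencing of MV-4-11 cells, a human acute myeloid leukaemia line that carries an activated FLT3 kinase. They were chosen by symbol and make up 9 of the 20036 rows of the expression table: CIITA, CD74, HLA-DRA, HLA-DRB1, HLA-DPA1, HLA-DPB1, HLA-DQB1, HLA-DMA and HLA-DMB. CIITA lies on chromosome 16, CD74 on chromosome 5 and the other 7 genes in the MHC on chromosome 6. The cells, all of 1 line labelled as wild type and of bone marrow origin, were given crenolanib together with HPA-12 (the combination), crenolanib alone, HPA-12 alone or DMSO, the solvent of the control cells, with 3 libraries in each of the 4 groups. Crenolanib inhibits FLT3. (1R,3S)-HPA-12 inhibits CERT, the protein that carries ceramide from the endoplasmic reticulum to the Golgi. The study's description gives 48 h for the treatments and no time for DMSO, and the sources used here give no doses. The labels do not tie the 3 libraries of a group to cultures of their own. A p-value here therefore sets a difference between groups against the spread of their libraries, and that spread may be technical.

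MHC class II molecules are pairs of an alpha and a beta chain (HLA-DR, HLA-DP and HLA-DQ) that show peptides from endosomes to CD4+ T cells. CD74, the invariant chain, blocks the groove of a new pair and leads it to the endosome, where HLA-DM, made of HLA-DMA and HLA-DMB, exchanges the last piece of CD74 for a peptide. Transcription of these genes depends on CIITA, a coactivator that binds no DNA itself and is held at the promoters by RFX, CREB and NF-Y proteins on the X and Y boxes. Myeloid leukaemia cells often carry class II molecules, and their loss is known from relapses after allogeneic transplantation.

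Promoter stretches with the letters of the X and Y boxes, through which CIITA is known to act, are shown for the 4 genes whose promoter windows held a match to ACNGATGA, a core of the X box, on the gene's own strand with a match to ATTGG, the core of the Y box, on either strand behind it. The sequences are RefSeq's, on GRCh38.p14, read 5′ to 3′ on the gene's own strand, which is the minus strand for all 4. Capitals mark the match to the X box core and then the first match to the Y box core behind it.
HLA-DRB1, chr6:32589878-32589935: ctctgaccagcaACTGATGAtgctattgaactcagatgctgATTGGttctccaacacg
HLA-DQB1, chr6:32666729-32666786: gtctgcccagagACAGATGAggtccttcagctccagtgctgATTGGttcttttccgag
HLA-DMA, chr6:32953160-32953218: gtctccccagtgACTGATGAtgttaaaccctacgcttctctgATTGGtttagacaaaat
HLA-DMB, chr6:32941034-32941124: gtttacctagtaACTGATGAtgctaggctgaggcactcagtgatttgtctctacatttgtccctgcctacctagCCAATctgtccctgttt

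In HLA-DRB1 and HLA-DQB1, 21 bases lay between the 2 matches, and in HLA-DMA 22. In HLA-DMB, 54 bases lay between them and the ATTGG match stood on the other strand, written CCAAT. Whether that match is the Y box of HLA-DMB was not tested. Windows of 250 bases before and 50 after the gene start were listed for 7 of the 9 genes, all but CIITA and HLA-DRA. On either strand, ACNGATGA was found in 5 of these 7 genes (CD74, HLA-DMA, HLA-DMB, HLA-DQB1 and HLA-DRB1) and in 2.26% of 35116 such windows. ATTGG was found in 6 of the 7 and in 34.6% of all windows, and the longer CTGATTGG, which contains it, in 3 of the 7 (HLA-DMA, HLA-DQB1 and HLA-DRB1) and in 3.97%. The letters were chosen with these sequences in view, and a match is a description of the sequence only.

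Values are FPKM, fragments scaled to the length of the gene and to the total of the library, as deposited. Depth was estimated from the low values and annotated gene lengths: about 4400000 to 5070000 reads in combination libraries, 10050000 to 10210000 with crenolanib, 12050000 to 12790000 with HPA-12 and 13570000 to 15980000 with DMSO. These are estimates, since only 30.6% to 39.4% of the values under 20 reads came out whole within 0.01 read. The 13 genes encoded in mitochondrial DNA held 61.6% to 62.6% of all FPKM in combination libraries and 35.9% to 36.2% with crenolanib. They held 21.1% to 22.1% with HPA-12 and 19.6% to 20.003% with DMSO. Summed FPKM also differed, at 493280 to 500569 in the combination and 294984 to 296686 with crenolanib. It was 241908 to 247470 with HPA-12 and 254624 to 260318 with DMSO. The setting called total without mitochondrial genes divided each library by its share of FPKM outside these genes. As the sums differ, it does not make the totals outside these genes equal. The combination libraries also spread more, with a median standard deviation of 0.34 on the log2(FPKM + 1) scale, against 0.12 with crenolanib, 0.09 with HPA-12 and 0.07 with DMSO. Each comparison was therefore fitted on its own 2 groups with limma on log2(FPKM + 1), a scale that understates changes of low genes, with Benjamini-Hochberg adjustment over the 11149 genes at 1 FPKM or more in at least 3 libraries. All 9 class II genes passed this filter, HLA-DPB1 through its 3 HPA-12 libraries and 1 combination library, so its difference between HPA-12 and other groups supports nothing by itself.

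CIITA, the coactivator, was measured at 2.82, 1.09 and 1.62 FPKM in the combination libraries, 6.644, 5.70 and 6.603 with crenolanib, 15.3, 15.2 and 14.1 with HPA-12, and 6.624, 8.68 and 8.27 with DMSO. The HPA-12 libraries were the highest and the combination libraries the lowest, without overlap with any other group, while crenolanib and DMSO overlapped in their highest and lowest library. CD74, the most abundant of the 9 genes in every library, stood at 92.7, 104 and 86.1 FPKM in the combination, 194, 189 and 195 with crenolanib, 298, 282 and 281 with HPA-12, and 274, 261 and 270 with DMSO. The 4 groups kept apart, and HPA-12 and DMSO were neighbours.

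HLA-DMA, the alpha chain of the peptide exchanger, had 4.69, 6.73 and 9.40 FPKM in the combination, 16.6, 11.1 and 16.2 with crenolanib, 33.4, 34.5 and 35.8 with HPA-12, and 16.1, 13.7 and 14.3 with DMSO. Its crenolanib and DMSO libraries overlapped, and every HPA-12 library lay above them all. Its partner HLA-DMB was low at 0.69, 0.51 and 0.42 FPKM in the combination, 0.99, 1.36 and 1.23 with crenolanib, 2.88, 4.30 and 3.39 with HPA-12, and 0.94, 1.13 and 0.91 with DMSO. For both chains the HPA-12 libraries were the highest and the combination libraries the lowest, and the crenolanib and DMSO libraries overlapped.

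HLA-DRA, the alpha chain of HLA-DR, which hardly varies between people, was the second most abundant gene, at 47.7, 56.4 and 48.1 FPKM in the combination, 106, 105 and 109 with crenolanib, 159, 157 and 156 with HPA-12, and 155, 132 and 137 with DMSO. HLA-DRB1, a beta chain that pairs with it, had 2.88, 1.41 and 0.35 FPKM in the combination, 3.48, 3.94 and 3.77 with crenolanib, 6.34, 6.35 and 6.90 with HPA-12, and 6.41, 6.33 and 5.74 with DMSO. The 3 combination values of HLA-DRB1 rest on about 15.5, 8.77 and 1.99 reads, and its HPA-12 and DMSO libraries overlapped. The HLA-DRB1 gene is highly polymorphic and near-identical to HLA-DRB5, and how the authors' alignment shared reads between such copies is not given in the sources used here, so its level relative to HLA-DRA is uncertain.

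HLA-DQB1, the beta chain of HLA-DQ, had 1.49, 1.25 and 1.42 FPKM in the combination, 4.77, 4.18 and 5.53 with crenolanib, 6.77, 6.29 and 6.59 with HPA-12, and 7.35, 6.53 and 6.92 with DMSO. Its mean of 6.55 ± 0.24 FPKM with HPA-12 lay below its mean of 6.93 ± 0.41 FPKM with DMSO (SD, n = 3 each), with overlapping libraries, and its combination libraries lay far below both. HLA-DPA1, the alpha chain of HLA-DP, had 4.78, 4.19 and 1.78 FPKM in the combination, 5.58, 7.14 and 6.99 with crenolanib, 11.3, 10.9 and 11.8 with HPA-12, and 8.43, 8.06 and 7.96 with DMSO, and its groups did not overlap. HLA-DPB1, the beta chain, was on average the lowest of the 9 genes and was listed at 0, 0.19 and 1.21 FPKM in the combination, 0.69, 0.81 and 0.99 with crenolanib, 1.03, 1.22 and 1.12 with HPA-12, and 0.91, 0.63 and 0.82 with DMSO. Its combination values rest on about 0, 2.67 and 15.5 reads and spanned those of all the other groups except 1 HPA-12 library.

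All 9 genes together summed to 150 to 176 FPKM in the combination, 328 to 345 with crenolanib, 517 to 534 with HPA-12 and 438 to 476 with DMSO. CD74 made up 58.4%, 57.1%, 54.9% and 59.0% of that sum in the same order of groups, and HLA-DRA 31.4%, 31.6%, 30.1% and 31.0%, so these genes carry most of the sum in every group. HLA-DMA made up 4.35% of it in the combination, 4.32% with crenolanib, 6.62% with HPA-12 and 3.23% with DMSO.

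**Figure D1:**
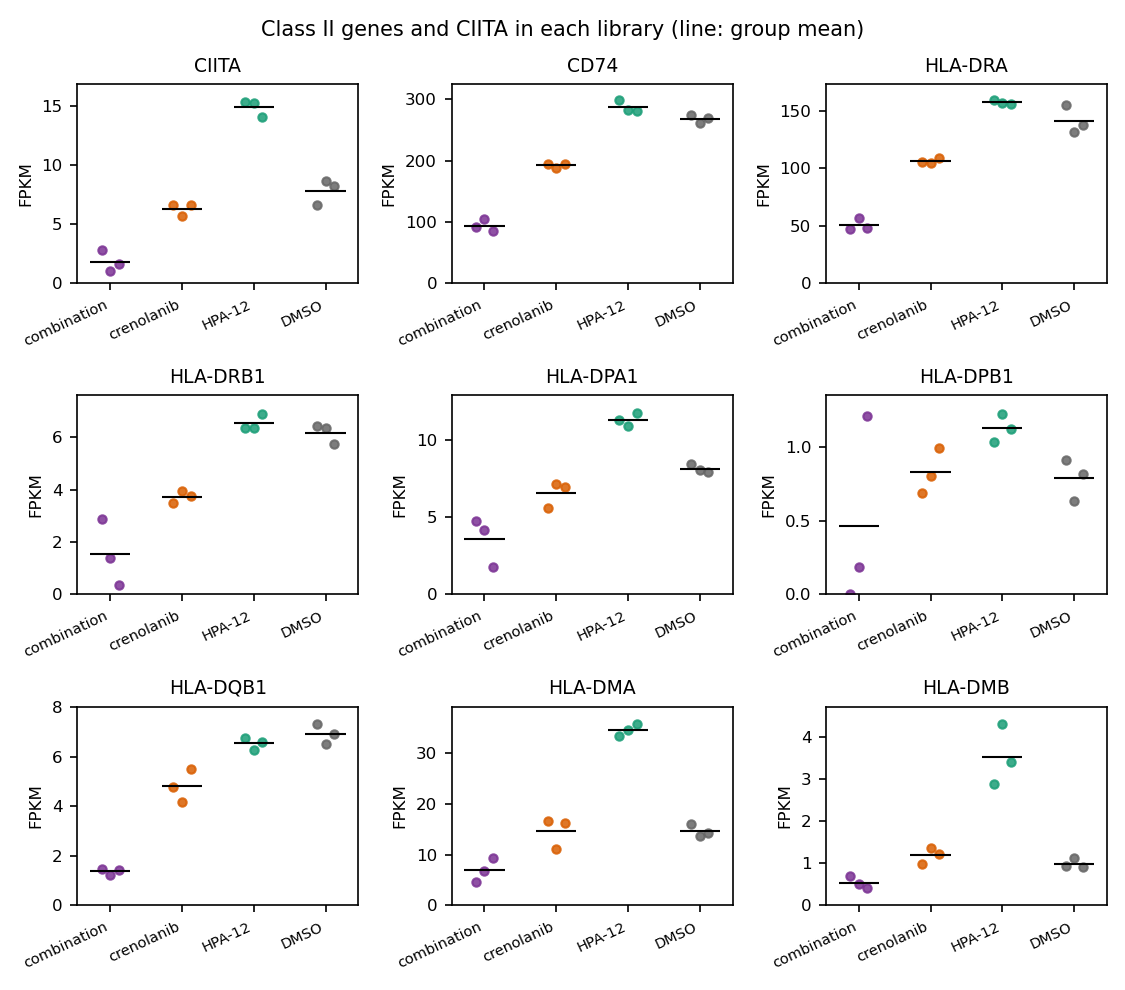
FPKM (vertical axes, starting at 0, 1 scale per gene) of CIITA and the 8 class II pathway genes in the 3 libraries of each group, from left to right combination, crenolanib, HPA-12 and DMSO; points are libraries and lines are group means. The combination points are the lowest for every gene but HLA-DPB1, and the HPA-12 points stand well above all others for CIITA, HLA-DMA and HLA-DMB.

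With HPA-12 alone the coactivator and both chains of the peptide exchanger rose, and the chains that present peptides rose less or did not pass the test. Against DMSO, HLA-DMA rose by 1.18 ± 0.06 (log2 fold change ± SE, adjusted p = 6.55e-09), HLA-DMB by 1.17 ± 0.11 (adjusted p = 1.39e-06) and CIITA by 0.85 ± 0.09 (adjusted p = 2.14e-06), each higher in 3 of 3 libraries. HLA-DPA1 rose by 0.43 ± 0.06 (adjusted p = 4.69e-05) and HLA-DRA by only 0.16 ± 0.06 (adjusted p = 0.0257). HLA-DPB1 was called higher at 0.25 ± 0.09, with the filter's part in it given above. In all, 6 of the 9 genes were higher and 0 lower, a count that includes HLA-DPB1 and so leans on the filter. Across all genes tested, 43.2% were higher and 34.6% lower. The median log2 fold change of the 9 genes was 0.25, and that of all genes 0.09.

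The abundant chaperone and 2 beta chains did not pass the test with HPA-12, but the chaperone's side of the threshold depended on the setting. CD74 differed by 0.10 (95% confidence interval −0.00 to 0.20), HLA-DRB1 by 0.07 (−0.09 to 0.23) and HLA-DQB1 by −0.07 (−0.23 to 0.08), so none of the 3 intervals reached beyond 0.23 in either direction. CD74 was called higher, still by only 0.10 to 0.13, with a variance weight per group, with the total without mitochondrial genes or with the replicate number as a block. CIITA, HLA-DPA1, HLA-DMA and HLA-DMB stayed called under each of the 3 other scalings, but HLA-DPA1, HLA-DPB1 and HLA-DRA lost their calls when all 4 groups shared 1 spread. HLA-DRA also lost its call under median-of-ratios (0.13) and upper-quartile (0.14) scaling, with no filter on low values (0.16) and without HPA-12 library 3 (0.16), DMSO library 2 (0.11) or DMSO library 3 (0.14), and HLA-DPB1 without HPA-12 library 2 (0.22) or DMSO library 2 (0.19).

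Crenolanib alone lowered CD74, CIITA and 4 of the 5 presenting chains, and neither chain of the exchanger passed the test. HLA-DRB1 fell by 0.60 ± 0.08 on the log2 scale (adjusted p = 0.000155), CD74 by 0.48 ± 0.04 (adjusted p = 3.24e-06), HLA-DQB1 by 0.45 ± 0.10 (adjusted p = 0.00264) and HLA-DRA by 0.40 ± 0.06 (adjusted p = 0.000225). HLA-DPA1 fell by 0.28 ± 0.09 (adjusted p = 0.0229) and CIITA by 0.27 ± 0.11 (adjusted p = 0.0421). HLA-DMA differed by −0.02 (95% confidence interval −0.33 to 0.28), HLA-DMB by 0.14 (−0.12 to 0.39) and HLA-DPB1 by 0.03 (−0.24 to 0.31), and none of these passed the test. Thus 0 of the 9 genes were higher and 6 lower, while 36.1% of all genes were higher and 39.4% lower. The median of the 9 genes was −0.28, and that of all genes −0.04.

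These crenolanib values depend on what the libraries are scaled to. With the total without mitochondrial genes, a division by each library's share of FPKM outside them, the median of all genes moved by 0.27. This setting does not make the totals outside those genes equal. CD74 at −0.15 and HLA-DRB1 at −0.35 stayed lower under it, and HLA-DMB became higher at 0.35. HLA-DRA (−0.08), HLA-DQB1 (−0.18), CIITA (0.015) and HLA-DPA1 (0.00705) lost their calls. The share of called genes that were higher was then 64.9%, against 47.8% as deposited, while the 2 other scalings moved the median by 0.01 and kept all 6 calls. The CIITA call also ended without crenolanib library 2 (−0.21), DMSO library 2 (−0.20) or DMSO library 3 (−0.23), and the HLA-DPA1 call without crenolanib library 1 (−0.18) or DMSO library 1 (−0.26), 2 (−0.29) or 3 (−0.30).

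With the combination, 7 of the 9 genes were lower, among them CIITA, CD74 and both chains of HLA-DR. Against DMSO, HLA-DQB1 fell by 1.73 ± 0.15 (adjusted p = 1e-04), CIITA by 1.68 ± 0.25 (adjusted p = 0.00133) and HLA-DRA by 1.46 ± 0.10 (adjusted p = 4.48e-05), and CD74 was lower at −1.502 ± 0.08 (adjusted p = 1.77e-05). HLA-DRB1 fell by 1.62 ± 0.37 (adjusted p = 0.00824), HLA-DPA1 by 1.07 ± 0.29 (adjusted p = 0.0159) and HLA-DMA by 1.02 ± 0.23 (adjusted p = 0.0074), with larger standard errors. HLA-DMB differed by −0.37 ± 0.16 (adjusted p = 0.0821) and HLA-DPB1 by −0.37 ± 0.31 (adjusted p = 0.33). Of the 9 genes 0 were higher, in a comparison where 49.6% of all genes were lower and 12.3% higher. The median of the 9 genes was −1.46, and that of all genes −0.62. In bulk RNA, fewer cells carrying a transcript and less transcript per cell cannot be told apart.

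**Figure D2:**
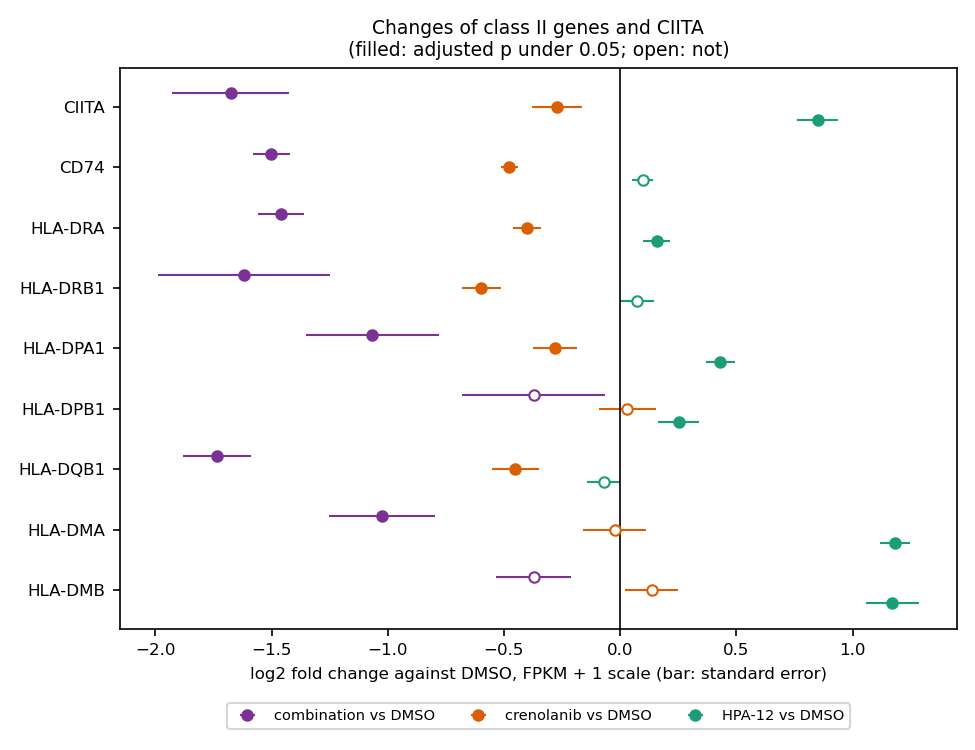
Log2 fold change against DMSO on the FPKM + 1 scale (horizontal axis, points with standard error bars) of each of the 9 genes, with the combination, crenolanib and HPA-12 drawn from top to bottom within each gene; filled points have an adjusted p under 0.05. The combination points lie left of 0 for all 9 genes, and the HPA-12 points reach their highest values, 1.18 and 1.17, at HLA-DMA and HLA-DMB.

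These values include a shift of all genes. Median-of-ratios scaling moved the median of all genes by 0.51 in this comparison, upper-quartile scaling by 0.50 and the total without mitochondrial genes by 0.80. The share of called genes that were higher, 19.9% as deposited, became 45.4%, 45.2% and 67.1% in that order. The last setting divides by a share of unequal FPKM sums, so its shift is not that of equal totals outside these genes. CIITA, CD74, HLA-DRA and HLA-DQB1 stayed lower under all 3 scalings. In the same order, CIITA was at −1.18, −1.18 and −0.94, and HLA-DQB1 at −1.26, −1.26 and −1.05. CD74 was at −0.81, −0.82 and −0.42, and HLA-DRA at −0.77, −0.78 and −0.39. HLA-DRB1 lost its call under each scaling (−1.18, −1.18 and −1.02), as did HLA-DPA1 (−0.50, −0.51 and −0.19) and HLA-DMA (−0.40, −0.40 and −0.04). HLA-DPB1 was called lower, at −0.71, without combination library 3, the only combination library in which it passed 1 FPKM, and was at −0.14, not called, without combination library 1. HLA-DPA1 lost its call without DMSO library 1 (−1.04), 2 (−1.07) or 3 (−1.08), and HLA-DMB was called lower at −0.44 without combination library 1.

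**Figure D3:**
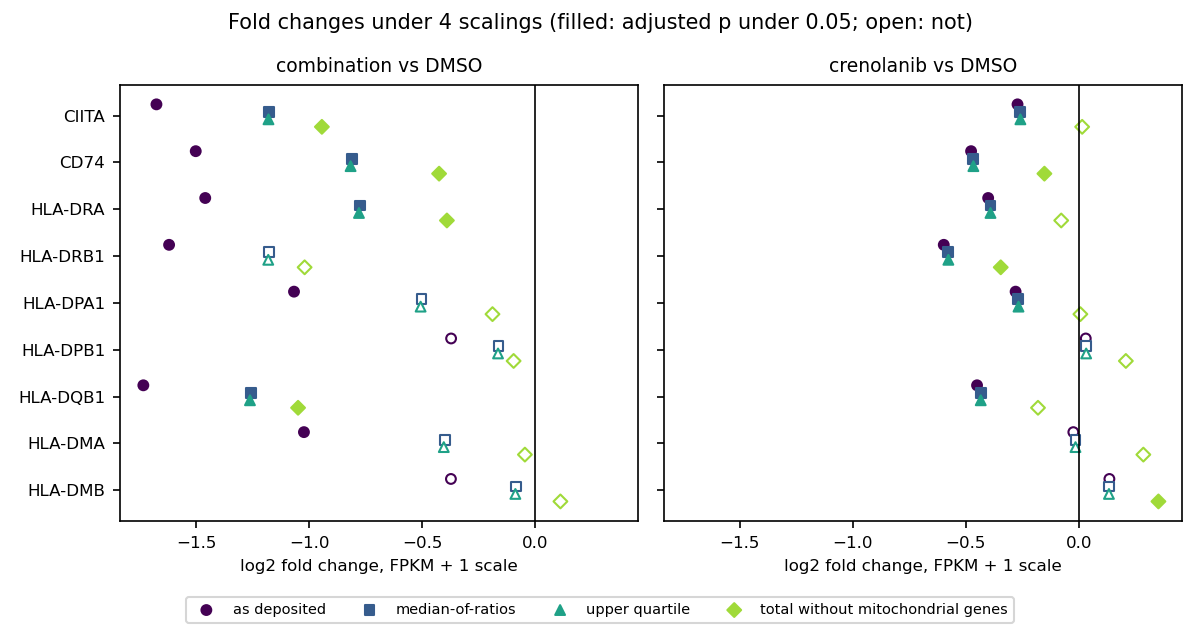
Log2 fold change on the FPKM + 1 scale (horizontal axes) of the 9 genes for the combination (left) and crenolanib (right) against DMSO, as deposited and under 3 other scalings of the libraries; filled symbols have an adjusted p under 0.05. In the left panel CIITA, CD74, HLA-DRA and HLA-DQB1 stay filled and left of 0 under every scaling. In the right panel the total without mitochondrial genes (division by the share of FPKM outside them) moves every gene to the right.

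In cells given HPA-12 with crenolanib, 5 of the 9 genes were lower than with crenolanib alone, a share near the 46.9% of all genes that were lower, and 2 of those calls depended on the scaling. With HPA-12 alone, 0 of the 9 were lower than with DMSO. In the combination against crenolanib alone, CIITA fell by 1.41 ± 0.26 (adjusted p = 0.00343), HLA-DQB1 by 1.28 ± 0.19 (adjusted p = 0.00149), HLA-DRA by 1.06 ± 0.09 (adjusted p = 0.000126), CD74 by 1.03 ± 0.08 (adjusted p = 9.79e-05) and HLA-DMA by 1.00 ± 0.26 (adjusted p = 0.0141). HLA-DRB1 at −1.02 (adjusted p = 0.0503), HLA-DPA1 at −0.79 (adjusted p = 0.057), HLA-DMB at −0.51 (adjusted p = 0.0659) and HLA-DPB1 at −0.40 (adjusted p = 0.306) did not pass. None of the 9 genes was higher, with 6.74% of all genes higher, and the median of the 9 genes was −1.02 against −0.63 for all genes. Median-of-ratios scaling moved that median by 0.51, upper-quartile scaling by 0.50 and the total without mitochondrial genes by 0.54, and called genes were then higher in 51.4%, 51.0% and 58.9% of cases, against 12.6% as deposited. HLA-DMA lost its call under all 3 (−0.38, −0.39 and −0.33) and without crenolanib library 1 (−0.90) or 3 (−0.92), and CIITA under the last (−0.96). Without combination library 1, HLA-DRB1 (−1.39), HLA-DPA1 (−0.99) and HLA-DMB (−0.58) were called as well. Without combination library 3, HLA-DRB1 was at −0.63 and HLA-DPA1 at −0.46, neither called, and HLA-DPB1 was called at −0.74, while without combination library 1 it was at −0.17.

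The difference between both effects of HPA-12 was tested in 1 fit of all 12 libraries, as its effect with crenolanib less its effect without. This fit shares 1 spread among the 4 groups, although the combination libraries spread more, so its p-values may be too small. CIITA differed by −2.25 ± 0.27 (adjusted p = 1.9e-05), HLA-DMA by −2.18 ± 0.28 (adjusted p = 3.37e-05) and HLA-DMB by −1.68 ± 0.21 (adjusted p = 2.78e-05), which were also the highest of the 9 with HPA-12 alone. HLA-DRA, HLA-DPA1, HLA-DQB1, CD74 and HLA-DRB1 differed by −1.22, −1.22, −1.21, −1.12 and −1.10, so that 8 of 9 genes had a lower effect and 0 a higher one. HLA-DPB1 at −0.65 (adjusted p = 0.111) did not pass. Over all genes 50% were lower and 15.4% higher on this measure, with a median of −0.65, against −1.22 for the 9 genes. The 3 other scalings moved the median of all genes by 0.52, 0.51 and 0.49 and the share of called genes that were higher to 46.3%, 45.8% and 46.8%, against 23.6% as deposited. CIITA (−1.73, −1.74 and −1.86), HLA-DMA and HLA-DMB stayed called under them, and HLA-DRB1 and HLA-DPA1 did not. HLA-DRB1 also lost this call without any 1 of the HPA-12 libraries (−1.11, −1.11 and −1.06), crenolanib library 2 or 3 (−1.06 and −1.09) or DMSO library 3 (−1.05), and was at −0.70, called, without combination library 3. HLA-DPB1 was called without combination library 3 (−0.99) and was at −0.42, not called, without combination library 1.

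Set against HPA-12 alone, the combination had lower levels of 8 of 9 genes, all but HLA-DPB1, and higher levels of 0, while 50.2% of all genes were lower and 11.8% higher. CIITA fell by 2.53 ± 0.24 (adjusted p = 0.000132), HLA-DMA by 2.21 ± 0.22 (adjusted p = 0.000162) and HLA-DMB by 1.54 ± 0.20 (adjusted p = 0.00053), and the median of the 9 genes was −1.62, against −0.64 for all genes. Other scalings moved that median by 0.53, 0.53 and 0.78 and made 47.1%, 46.5% and 65% of the called genes higher, against 19.0% as deposited. HLA-DRB1 lost its call under all 3 (−1.23, −1.23 and −1.12) and HLA-DPA1 under the last (−0.66), and HLA-DPB1 was called without combination library 3 (−0.96) and was at −0.39, not called, without combination library 1. Crenolanib alone against HPA-12 alone gave 8 of 9 genes lower, again all but HLA-DPB1, and 0 higher, with 35.1% of all genes lower and 29% higher. Here HLA-DMA fell by 1.21 ± 0.12 (adjusted p = 2.1e-05), CIITA by 1.12 ± 0.09 (adjusted p = 2.75e-06), HLA-DMB by 1.04 ± 0.14 (adjusted p = 0.000116) and HLA-DPA1 by 0.71 ± 0.10 (adjusted p = 0.000154), and the other called genes by 0.38 to 0.67. The median of the 9 genes was −0.67, and that of all genes −0.05. With the total without mitochondrial genes, which moved that median by 0.25, HLA-DQB1 lost its call (−0.14). That setting made 69.3% of called genes higher, against 45.25% as deposited. All comparisons with DMSO share its libraries, as those with HPA-12 or crenolanib share theirs, so their values for a gene are not independent of each other.

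A ratio between 2 genes of the same library does not depend on how that library was scaled. The log2 ratio of CD74 to HLA-DRA was 0.90 ± 0.06 in the combination, 0.85 ± 0.02 with crenolanib, 0.87 ± 0.03 with HPA-12 and 0.93 ± 0.09 with DMSO (SD, n = 3 each), and the groups overlapped in each of the 6 comparisons. The proportion of CD74 to HLA-DRA thus showed no difference beyond the spread between libraries, in groups whose levels of both genes did not overlap. HLA-DMA relative to HLA-DRA was at −2.92 ± 0.51 in the combination, −2.89 ± 0.30 with crenolanib, −2.19 ± 0.06 with HPA-12 and −3.26 ± 0.000465 with DMSO. HLA-DMB relative to HLA-DRA was at −6.57 ± 0.40, −6.49 ± 0.24, −5.50 ± 0.30 and −7.15 ± 0.27 in the same order of groups.

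Relative to HLA-DRA, the exchanger's chains were higher with HPA-12 than with DMSO, by 1.08 for HLA-DMA and 1.65 for HLA-DMB, without overlap. CIITA (by 0.77), HLA-DPA1 (by 0.32) and the low HLA-DPB1 (by 0.37) were also higher without overlap on this measure. HLA-DQB1 was lower without overlap (−0.24), and CD74 and HLA-DRB1 overlapped. The ratio of HLA-DMB also lay above DMSO without overlap in the combination (by 0.58) and with crenolanib (by 0.66), and that of HLA-DMA with crenolanib (by 0.38). In the combination HLA-DMB rested on about 14.1, 12.1 and 9.08 reads. Its lowest ratio there, −6.82, nearly met its highest with DMSO, −6.86. With crenolanib the ratio of HLA-DPB1 was also higher without overlap (by 0.47) and that of HLA-DRB1 lower (−0.32). CIITA relative to HLA-DRA was at −4.89 ± 0.81 in the combination, −4.08 ± 0.11 with crenolanib, −3.40 ± 0.06 with HPA-12 and −4.17 ± 0.33 with DMSO, and its combination and DMSO libraries overlapped. HLA-DQB1 relative to HLA-DRA was at −5.19 ± 0.27 in the combination, −4.47 ± 0.17 with crenolanib, −4.59 ± 0.05 with HPA-12 and −4.35 ± 0.04 with DMSO, and its combination libraries lay below those of every other group. A two-sided exact permutation test gave p = 0.1 for each of these differences without overlap, which is the smallest that 3 libraries against 3 allow, so none can pass 0.05.

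**Figure D4:**
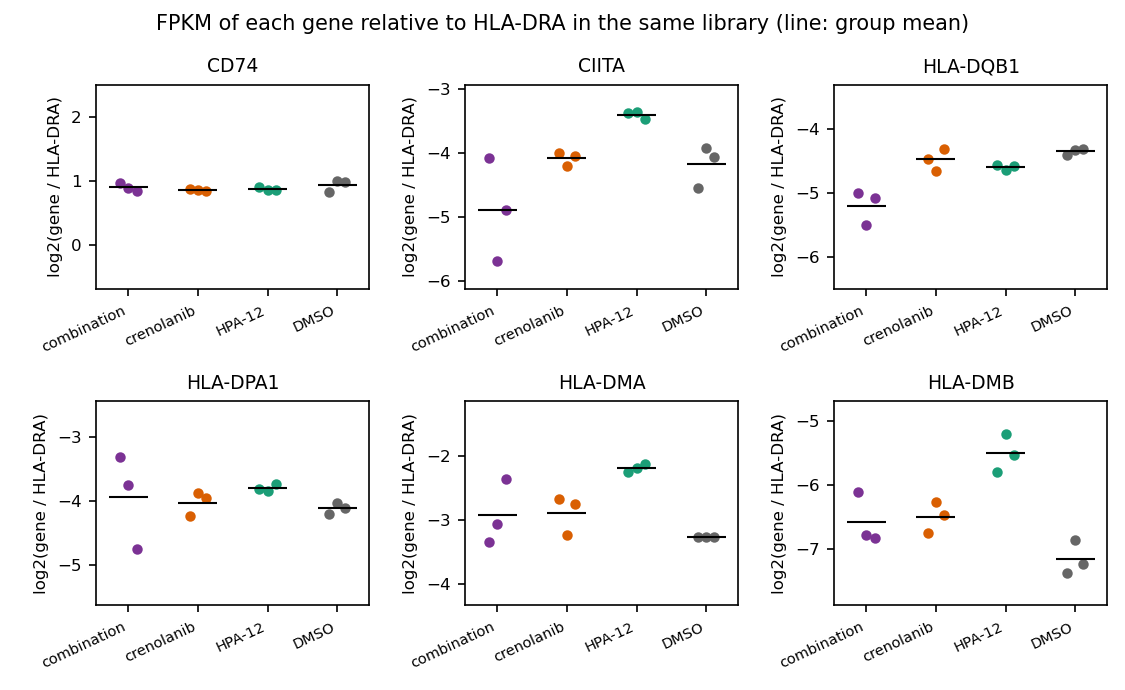
Log2 ratio of the FPKM of 6 genes to that of HLA-DRA in the same library (vertical axes, each spanning the same number of log2 units), for combination, crenolanib, HPA-12 and DMSO from left to right; points are libraries and lines are group means. The CD74 points lie level in all 4 groups near 0.9, and HLA-DMA and HLA-DMB stand highest with HPA-12.

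The factors that hold CIITA at class II promoters changed in different directions. Of RFX5, RFXAP, RFXANK (the RFX complex), NFYA, NFYB, NFYC (NF-Y) and CREB1, 0 were higher and 4 lower in the combination against DMSO, 2 higher and 3 lower with crenolanib, and 2 higher and 4 lower with HPA-12. The shares over all genes were 12.3% higher and 49.6% lower in the combination, 36.1% and 39.4% with crenolanib, and 43.2% and 34.6% with HPA-12, and nothing particular to these 7 genes is read from their counts. RFXANK fell by 1.42 ± 0.15 in the combination, by 1.40 ± 0.11 with crenolanib and by 1.02 ± 0.06 with HPA-12. RFX5, the DNA-binding subunit, fell by 1.57 ± 0.10 in the combination, by 0.76 ± 0.12 with crenolanib and by 0.18 ± 0.05 with HPA-12, and was at 11.1, 12.6 and 10.9 FPKM in the combination, 25.1, 17.0 and 21.5 with crenolanib, 33.0, 30.8 and 31.4 with HPA-12, and 35.0, 38.3 and 35.2 with DMSO. RFX5 was thus below DMSO in every treated library, and lowest in the combination. CREB1 rose by 0.93 ± 0.09 with crenolanib and by 0.66 ± 0.09 with HPA-12. Under the other scalings of the combination against DMSO, RFX5 stayed lower (−0.92, −0.92 and −0.55), NFYC was no longer called, and RFXAP (0.48, 0.48 and 0.86) and CREB1 (0.79, 0.79 and 1.19) became higher. RFXANK stayed lower under the first 2 of them (−0.75 and −0.76) and was at −0.37 with the total without mitochondrial genes.

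Of 15 genes of interferon gamma signalling and CIITA regulation, 5 were higher and 9 lower in the combination against DMSO, 10 higher and 4 lower with crenolanib, and 9 higher and 3 lower with HPA-12. Among all genes, 12.3% were higher and 49.6% lower in the combination, 36.1% and 39.4% with crenolanib, and 43.2% and 34.6% with HPA-12. The combination counts of the 15 became 5 higher and 4 lower, 5 and 4, and 7 and 2 under the 3 other scalings. Of all called genes 45.4%, 45.2% and 67.1% were then higher, against 19.9% as deposited. SOCS1, an inhibitor of JAK kinases, had 325, 317 and 334 FPKM in the combination, 167, 155 and 169 with crenolanib, 1.84, 1.67 and 2.28 with HPA-12, and 4.13, 4.90 and 4.82 with DMSO. It rose by 5.86 ± 0.09 in the combination and by 4.87 ± 0.07 with crenolanib, and fell by 0.94 ± 0.10 with HPA-12, and no groups overlapped. SPI1 (PU.1), a myeloid transcription factor, had 61.3, 52.6 and 58.2 FPKM in the combination, 142, 148 and 164 with crenolanib, 264, 243 and 255 with HPA-12, and 236, 230 and 238 with DMSO, so that its groups stood in the order seen for HLA-DRA and CD74. It fell by 2.02 ± 0.07 in the combination and by 0.63 ± 0.05 with crenolanib, and rose by 0.11 ± 0.05 with HPA-12 (adjusted p = 0.0421), a call lost under median-of-ratios (0.08) and upper-quartile (0.09) scaling.

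IRF8, a myeloid factor that partners with PU.1, fell by 2.55 ± 0.15 in the combination, by 1.04 ± 0.04 with crenolanib and by 0.77 ± 0.04 with HPA-12. IRF4 fell by 2.07 ± 0.37 in the combination and by 0.37 ± 0.09 with crenolanib (−0.08, not called, with the total without mitochondrial genes), and USF1, which binds a CIITA promoter, fell by 1.44 ± 0.14 and by 0.46 ± 0.06 in these groups and rose by 0.46 ± 0.04 with HPA-12. The receptor chain IFNGR1 rose by 1.47 ± 0.09 with crenolanib and by 1.45 ± 0.09 with HPA-12. In the same order of groups JAK1 rose by 0.77 ± 0.07 and 1.10 ± 0.06, and the repressor PRDM1 by 0.96 ± 0.10 and 1.09 ± 0.08. IRF1 rose by 0.75 ± 0.14 in the combination and by 0.93 ± 0.09 with crenolanib, and EZH2, a histone methyltransferase that can silence CIITA, by 0.81 ± 0.15 and 0.97 ± 0.07. SPI1, IRF8 and SOCS1 kept their calls under all 3 other scalings of the combination against DMSO, while USF1 (−0.40) and IRF4 (−1.38) lost theirs with the total without mitochondrial genes, JAK1 and CREBBP changed sign under each, and IRF2 did so with the total without mitochondrial genes. In the test of both HPA-12 effects against each other, 12 of the 15 were lower and 1 (SOCS1, 1.93 ± 0.13) higher, where 50% of all genes were lower and 15.4% higher. The 3 other scalings, which moved the median of all genes by 0.52, 0.51 and 0.49, left 10, 10 and 9 of the 15 lower and made 2 higher in each case.

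**Figure D5:**
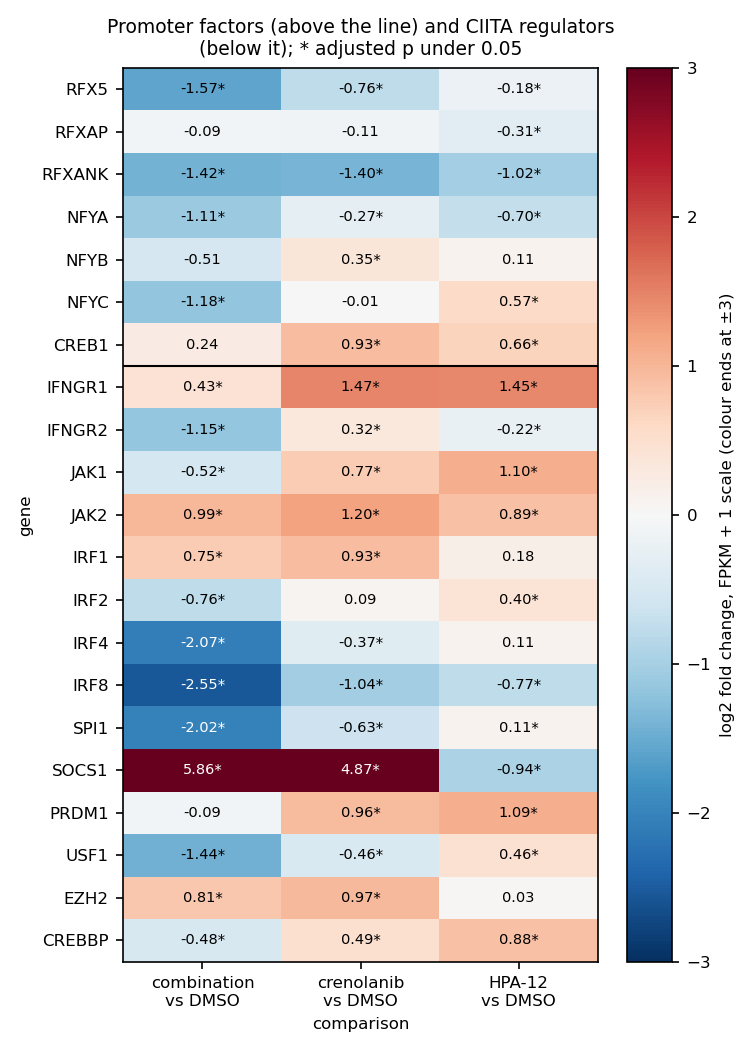
Log2 fold change against DMSO on the FPKM + 1 scale, printed and coloured (red higher, blue lower), of 7 promoter factors above the line and CIITA regulators below it, for the combination, crenolanib and HPA-12 from left to right; an asterisk marks an adjusted p under 0.05. SOCS1 stands out at 5.86 and 4.87 in the left and middle columns, and SPI1, IRF8, IRF4, USF1 and RFX5 have their lowest values in the left column.

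Genes that serve class II peptides in endosomes and at the surface changed in both directions. Of 11 processing genes that passed the filter out of 12 listed, 2 were higher and 7 lower in the combination against DMSO, 5 higher and 4 lower with crenolanib, and 7 higher and 2 lower with HPA-12. All genes gave 12.3% higher and 49.6% lower in the combination, 36.1% and 39.4% with crenolanib, and 43.2% and 34.6% with HPA-12. Under the 3 other scalings the combination counts of the 11 became 3 higher and 4 lower, 3 and 4, and 5 and 2. Of all called genes 45.4%, 45.2% and 67.1% were then higher, against 19.9% as deposited. The proteases CTSB and CTSL differed: CTSB rose by 1.87 ± 0.04 with HPA-12 and by 0.83 ± 0.04 with crenolanib and fell by 0.44 ± 0.10 in the combination, a direction that turned under the other scalings (0.24, 0.24 and 0.63, called under the last), while CTSL rose by 2.56 ± 0.18 in the combination and by 0.90 ± 0.16 with crenolanib. IFI30, a thiol reductase that unfolds antigens, rose by 2.23 ± 0.30 in the combination, by 1.29 ± 0.13 with crenolanib and by 1.10 ± 0.11 with HPA-12. AP1M1, a subunit of a trafficking adaptor, fell by 2.06 ± 0.14 in the combination and by 0.99 ± 0.08 with crenolanib. LAMP1, a lysosomal membrane protein, rose by 0.77 ± 0.04 with HPA-12 and fell by 1.33 ± 0.14 in the combination, a call lost with the total without mitochondrial genes (−0.27).

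Of 7 turnover and co-stimulation genes tested out of 10, 2 were higher and 3 lower in the combination against DMSO, 3 higher and 3 lower with crenolanib, and 4 higher and 2 lower with HPA-12. These 7 genes are too few to set against the shares over all genes, which were 12.3% higher and 49.6% lower in the combination, 36.1% and 39.4% with crenolanib, and 43.2% and 34.6% with HPA-12. CD86, a ligand of CD28 on T cells, had 4.36, 3.67 and 3.35 FPKM in the combination, 14.7, 15.3 and 17.8 with crenolanib, 27.3, 28.5 and 29.8 with HPA-12, and 2.73, 2.72 and 2.87 with DMSO. It rose by 2.97 ± 0.06 with HPA-12 and by 2.16 ± 0.09 with crenolanib, and differed by 0.34 ± 0.16 (adjusted p = 0.0965) in the combination, though it was called higher there under the other scalings (0.89 with median-of-ratios scaling). Its HPA-12 effect with crenolanib was lower than without by −4.79 ± 0.16. CD83, a surface protein that stabilises class II, rose by 2.68 ± 0.19 in the combination, by 2.46 ± 0.07 with crenolanib and by 0.42 ± 0.08 with HPA-12. LGALS9 fell by 1.93 ± 0.13 in the combination, by 1.58 ± 0.06 with crenolanib and by 1.47 ± 0.06 with HPA-12, and CD4, the coreceptor for class II that monocytes also carry, fell by 2.19 ± 0.10 in the combination and by 0.61 ± 0.05 with crenolanib.

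Class I genes changed in both directions in every treated group. Of 13 class I genes, 2 were higher and 6 lower in the combination against DMSO, 4 higher and 6 lower with crenolanib, and 5 higher and 4 lower with HPA-12. Over all genes tested, 12.3% were higher and 49.6% lower in the combination, 36.1% and 39.4% with crenolanib, and 43.2% and 34.6% with HPA-12, so that both directions were common outside this list too. The 3 other scalings made the combination counts 4 higher and 3 lower, 4 and 3, and 5 and 2. Of all called genes 45.4%, 45.2% and 67.1% were then higher, against 19.9% as deposited. With crenolanib the total without mitochondrial genes gave 7 higher and 4 lower. B2M, the light chain of every class I molecule, rose by 0.55 ± 0.05 in the combination, by 0.64 ± 0.04 with crenolanib and by 0.70 ± 0.05 with HPA-12, and HLA-C by 0.33 ± 0.06, 0.28 ± 0.04 and 0.32 ± 0.05. TAPBP, which loads class I peptides, fell by 1.93 ± 0.18 in the combination, and PSMB8, an immunoproteasome subunit, fell by 1.77 ± 0.12 there, by 1.37 ± 0.09 with crenolanib and by 1.26 ± 0.08 with HPA-12. PSMB8 lies among the class II genes on the chromosome. Of 11 tested neighbours in that region (4 of them class I genes counted above), 1 was higher and 7 lower in the combination, 0 higher and 8 lower with crenolanib, and 4 higher and 5 lower with HPA-12. Among them SLC39A7 fell by 1.80 ± 0.17, RXRB by 1.47 ± 0.28 and BRD2 by 1.16 ± 0.17 in the combination, and HSD17B8 rose by 0.98 ± 0.14. RXRB and BRD2 lost their calls under all 3 other scalings. In the combination these left 1 neighbour higher and 3 lower, 1 and 3, and 2 and 2.

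Of 6 other class II genes, only HLA-DRB5 passed the filter. It was at 0, 8.68 and 0 FPKM in the combination, 1.83, 4.54 and 2.07 with crenolanib, 2.64, 3.45 and 2.94 with HPA-12, and 3.45, 3.18 and 3.36 with DMSO, and its combination value rested on library 2 alone. That same library was the only one with COL1A1 or COL3A1 above 1 FPKM, at 6.81 FPKM for COL1A1 and 8.49 FPKM for COL3A1. The part of either in the HLA-DRB1 values was not tested. HLA-DQA1, the partner of HLA-DQB1, reached 1.10 FPKM at most, in an HPA-12 library, and HLA-DQA2 and HLA-DQB2 stayed under 0.1 FPKM throughout. HLA-DOA (1.53 FPKM) and HLA-DOB (2.08 FPKM) passed 1 FPKM in 1 combination library each. In GENCODE 29 the exons of CIITA share 2416 bases, 11.6% of its exon sequence, with DEXI on the opposite strand, those of HLA-DMB share 438 bases and those of HLA-DMA 174 with a readthrough gene on the same strand, and HLA-DPA1 and HLA-DPB1 share 96 bases on opposite strands. Whether the authors' counting used strand is not given, so reads in these stretches cannot be assigned.

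Markers of dendritic cells and B cells, which normally carry class II, were low, and lists of other cell types were summed as well. Of 9 dendritic cell markers, of which 2 passed the filter, 7 were at 0 in all combination libraries, CLEC9A and CLEC4C were listed at 0 in all 12 libraries, and the list summed to 2.54 to 3.31 FPKM in the combination, 3.59 to 5.25 with crenolanib, 2.84 to 3.34 with HPA-12 and 11.5 to 13.4 with DMSO, where CLEC10A gave 10.2 to 11.1. The 8 B cell markers (3 passed) summed to 2.58 to 5.18 FPKM in the combination, 3.27 to 4.70 with crenolanib, 6.35 to 7.07 with HPA-12 and 2.88 to 4.66 with DMSO, and PAX5, CD79B and BLK stayed under 0.1 FPKM in every library. The 8 T and NK cell markers (2 passed) summed to 23.6 to 28.1 FPKM in the combination, 25.7 to 38.2 with crenolanib, 49.4 to 53.1 with HPA-12 and 61.5 to 63.6 with DMSO, with NKG7 at 59.8 to 62.1 FPKM with DMSO. The 10 stromal and epithelial markers (3 passed) summed to 11.3 to 30.1, 27.3 to 31.5, 63.1 to 66.2 and 15.6 to 17.2 FPKM in the same order of groups, with PECAM1 at 57.1 to 60.6 FPKM with HPA-12.

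The line's own myeloid markers passed the filter in 11 of 12 cases (all but CD68) and summed to 778 to 833 FPKM in the combination, 999 to 1059 with crenolanib, 733 to 775 with HPA-12 and 1188 to 1206 with DMSO. Against DMSO, 2 were higher and 6 lower in the combination, 4 higher and 5 lower with crenolanib, and 5 higher and 5 lower with HPA-12. Shares of all genes were 12.3% higher and 49.6% lower in the combination, 36.1% and 39.4% with crenolanib, and 43.2% and 34.6% with HPA-12. Erythroid markers summed to 26301 to 26698 FPKM in the combination, 4255 to 4527 with crenolanib, 214 to 220 with HPA-12 and 76.8 to 84.1 with DMSO. Against DMSO, 10 of 10 erythroid markers were higher in the combination and with crenolanib, and 8 were higher and 0 lower with HPA-12. Their rank over the groups was the reverse of that of CD74 and HLA-DRA except between HPA-12 and DMSO. The part of these markers in the class II values was not tested.

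As a description of the pattern over the 12 libraries, which fall into 4 groups and differ in depth, the genes outside the pathway most like the mean of the 9 genes were DGKZ (Pearson r = 0.996), GAA, PREX1, MLXIP (0.995 each) and HOOK2 (0.994). DGKZ averaged 17.5 FPKM in the combination, 42.0 with crenolanib, 81.1 with HPA-12 and 57.4 with DMSO. Most like CIITA were ZNF641 (0.994), KLHL36, CYB561D1 (0.992 each), LASP1 and DOK2 (0.991 each). Among the class II genes themselves, the correlation with CIITA ran from 0.925 for CD74 and 0.921 for HLA-DRA down to 0.856 for HLA-DMB and 0.578 for HLA-DPB1.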

How the data were processed

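MV-4-11 RNA was sequenced in 12 libraries, 3 in each of 4 groups named by the sample titles. The authors deposited 1 table of FPKM, 1 column per library, per the file headers. How reads were aligned and counted, and on which build, is not given in the sources used here. Of 20036 Ensembl identifiers, 20011 had a symbol and 2509 were at 0 in every library. Genes at 1 FPKM or more in at least 3 libraries (11149) were tested as log2(FPKM + 1) with limma 3.58.1 (R 4.3.3, empirical Bayes with trend and robust options, two-sided, Benjamini-Hochberg adjustment, threshold 0.05), each comparison on its own 2 groups and the interaction on all 12 libraries. The fit was tested on simulated data. Depth and reads per gene were estimated from GENCODE 29 lengths. With no counts deposited, no counting intervals are given. Promoter sequences are RefSeq's (GRCh38.p14). The genes named are the 9 genes chosen by symbol, up to 3 called genes with the largest change of each pathway list and comparison, promoter factors and CIITA regulators, markers, and the 5 genes most alike at a mean of 5 FPKM or more. B2M, HLA-C, BRD2 and the other class II genes were named after their values were seen. The values of 1 gene of the CIITA regulator list are not reported here. These genes and the lists were chosen with earlier results of these data known. Alternatives were the spread shared by 4 groups, group weights, a pseudocount of 0.1, 2 other filters, 3 other scalings, a fit that is not robust, a replicate block and leaving out each library.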

Additional observations from a re-analysis of the deposited data

Results flagged for a closer look

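The effect of HPA-12 differed with and without crenolanib for 8 of the 9 genes, by limma's interaction term over all 12 libraries with Benjamini-Hochberg adjustment. That fit shares 1 spread among groups that spread differently, so its p-values may be too small. The differences, as the effect with crenolanib less the effect without it on the log2(FPKM + 1) scale, were −2.25 for CIITA, −2.18 for HLA-DMA, −1.68 for HLA-DMB, −1.22 for HLA-DRA, −1.22 for HLA-DPA1, −1.21 for HLA-DQB1, −1.12 for CD74 and −1.10 for HLA-DRB1. On the same measure 50% of all genes were lower and 15.4% higher, and the median over all genes was −0.65. The values for HLA-DRB1 and HLA-DPA1 did not pass under the 3 other scalings, and HLA-DRB1 rests on about 1.99 to 15.5 reads in each combination library.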

How the results depend on the processing

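Of 1046 values for single genes under the alternatives, 947 kept their direction and their side of the threshold, 64 lost and 27 gained a call, and 8 changed sign. With 1 fit of all 4 groups, the 9 genes gave 3 calls in place of 6 for HPA-12 and 3 in place of 6 for crenolanib against DMSO, and 8 in place of 5 for the combination against crenolanib; all genes gave 5652 calls in place of 8672 for HPA-12 against DMSO and 4589 in place of 7147 for crenolanib against HPA-12. The 3 other scalings (median-of-ratios, upper quartile, total without mitochondrial genes) each left 4 of 7 calls for the combination against DMSO, and gave 2928, 2933 and 2775 calls over all genes in place of 5977 for the combination against crenolanib. The total without mitochondrial genes gave 3 calls for crenolanib against DMSO, of which CD74 and HLA-DRB1 were lower as before and HLA-DMB (0.35) was newly higher, and left 3 of 5 for the combination against crenolanib. It turned the sign of CIITA (0.015), HLA-DPA1 (0.00705) and HLA-DMA (0.29) for crenolanib against DMSO and of HLA-DMB (0.11) for the combination against DMSO. With genes above 0 in all libraries there were 8 calls for the combination against crenolanib, and HLA-DPB1, listed at 0 in 1 library, has no value. Leaving out 1 library in turn gave 4 to 6 calls for HPA-12 and 4 to 6 for crenolanib against DMSO, 6 to 8 for the combination against DMSO, 4 to 8 for it against crenolanib (8 without its library 1), 8 to 9 against HPA-12 and 7 to 9 for the interaction. It moved HLA-DPB1 between −0.033 and 0.088 and HLA-DMA between −0.12 and 0.15 for crenolanib against DMSO. The cause was not tested.

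Over all 11149 genes tested, deviations of libraries with the same number from their group means had correlations of −0.03 to 0.07. No pairing by number was seen on this measure, and a pairing limited to some genes was not tested. The replicate block gave 7 calls in place of 6 for HPA-12 and 5 in place of 6 for crenolanib against DMSO, where CIITA at −0.27 was not called, 6 in place of 5 for the combination against crenolanib, and moved no other of the 7 counts of class II genes.

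The combination libraries are the shallowest, and limit HLA-DRB1, HLA-DPB1 and HLA-DMB, which rest there on 15.5 estimated reads or fewer.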
